A study of Mus musculus with 2 samples.

Results

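6 genes of 1 immune signalling family were followed through single CD4 T cells of mouse spleen: the SLAM receptors Slamf1, Slamf6, Cd84, Ly9 and Cd48, and Sh2d1a, which encodes the adaptor SAP. They were chosen by name, as 6 of the 35976 gene rows counted in every well, and all 6 passed the filter on low values (20 CPM, defined below, in at least 1 pool). The cells were OTII T cells, which carry a transgenic receptor for an ovalbumin peptide. They had been transferred into host mice and were collected on day 7 after a treatment named CAS, which the labels do not explain, and a second priming. The study asked how IL-13 receptor signals in dendritic cells of the host bear on follicular helper T cells. Control hosts were C57BL/6 mice (a pool of 2 mice), and the hosts called deleted here were IL13Ra1f/f, CD11cCre/+ mice (a pool of 3 mice), in which Cre is driven by the CD11c promoter, active mainly in dendritic cells. Neither floxed alleles nor Cre are named for the control hosts, and the genotype of the transferred T cells beyond OTII is not stated. Cells were sorted as viable, V beta 5.1-5.2 positive and CD4 positive, a gate that names no marker of the donor cells.

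SLAM receptors are immunoglobulin-type proteins on the surface of blood cells. Slamf1, Slamf6, Cd84 and Ly9 each bind another copy of themselves on the neighbouring cell, while Cd48, which is anchored by a lipid and has no signalling tail, binds CD244 and CD2. SAP is a small SH2-domain protein that docks on tyrosines in the tails of the receptors, recruits the kinase Fyn and keeps phosphatases such as SHP-1 and SHP-2 away. In follicular helper T cells SAP is known to be needed for lasting contact with B cells, and the chemokine receptor Cxcr5 and the costimulator Icos are markers of that cell type.

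The 5 receptor genes lie together on chromosome 1 within 360 kb (GRCm38, RefSeq), in the order Ly9 (chr1:171588613-171607410, minus strand), Cd48 (chr1:171681245-171705258), Slamf1 (chr1:171767131-171801184), Cd84 (chr1:171839697-171890718) and Slamf6 (chr1:171917458-171948958), the last 4 on the plus strand. Sh2d1a lies on chromosome X (chrX:42502565-42522097, plus strand). Slamf1, Cd84 and Slamf6 are consecutive receptor genes on 1 strand, yet were detected in very different shares of the cells, so the 250 bases before the start of a RefSeq transcript of each (GRCm38.p6, plus strand, 5′ to 3′) are shown with the ETS core (GGAA, or TTCC on the other strand) in capitals. The windows are chr1:171766882-171767131, chr1:171839447-171839696 and chr1:171917212-171917461 in that order.
Slamf1: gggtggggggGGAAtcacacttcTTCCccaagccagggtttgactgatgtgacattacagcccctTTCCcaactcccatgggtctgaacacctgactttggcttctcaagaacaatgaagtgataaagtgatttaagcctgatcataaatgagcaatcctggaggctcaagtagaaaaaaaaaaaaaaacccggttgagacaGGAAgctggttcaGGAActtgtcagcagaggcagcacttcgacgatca
Cd84: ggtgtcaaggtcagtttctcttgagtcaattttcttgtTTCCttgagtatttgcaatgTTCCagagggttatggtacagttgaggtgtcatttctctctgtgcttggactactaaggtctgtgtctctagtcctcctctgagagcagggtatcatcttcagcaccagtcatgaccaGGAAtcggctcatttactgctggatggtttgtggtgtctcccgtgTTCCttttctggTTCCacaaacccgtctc
Slamf6: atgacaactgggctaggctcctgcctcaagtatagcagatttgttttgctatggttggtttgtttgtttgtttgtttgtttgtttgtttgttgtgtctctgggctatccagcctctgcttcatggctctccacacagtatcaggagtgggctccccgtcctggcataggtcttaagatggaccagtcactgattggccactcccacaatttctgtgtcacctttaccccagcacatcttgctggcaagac

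The ETS core stood 5 times in the Slamf1 window, 5 times in that of Cd84 and not at all in that of Slamf6, the gene detected in most cells. It is a short motif that 93.4% of the 32851 promoter windows of this length hold at least once. The RUNX core (TGTGGT, or ACCACA) stood once in the window of Cd84 and once in that of Cd48 and in neither other window, against 14% of all windows. The Cd48 window, chr1:171681742-171681991, lies inside the gene span given above and not before its first base. Of the other motifs searched on both strands, CTTTG (TCF/LEF) stood once each for Slamf1 and Cd48 (48.6% of all windows hold it), and GATA stood once each for Slamf1 and Cd84 and 2 times for Slamf6 (53.6%). RefSeq windows were found for 4 of the 6 genes, those of Ly9 and Sh2d1a being the ones not matched. These matches are a description of letters, and binding was not measured.

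Each pool was sorted over 4 plates with 92 cell wells each, giving 368 cells a pool. Plates held 125197307 to 148025125 reads in genes, and the median cell held 1592794.5 reads in the control pool and 1499762 in the deleted pool. Levels are in CPM, the counts of a gene per 1000000 counts of all genes, summed over the cells of a plate or pool. Positive cells for a gene are those that reached both 10 CPM and 5% of the gene's mean CPM on the plate. All 8 CD4 T cell markers were found, with a summed level of 5955 CPM in the control pool and 5925 CPM in the deleted pool. Of the 8 B cell markers with a row, 0 reached 5 CPM in either pool. Markers of regulatory T cells (Foxp3, Il2ra, Ikzf2 and Ctla4) summed to 164 to 232 CPM on the control plates and 210 to 424 CPM on the deleted plates. Positive cells in the control and deleted pools numbered 8 and 6 for Foxp3, 4 and 4 for Il2ra, 59 and 81 for Ikzf2 and 70 and 122 for Ctla4. At least 2 of these markers were positive in 24 and 38 cells. Markers of natural killer and innate lymphoid cells summed to 19.9 to 39.95 CPM and 41.8 to 53.9 CPM, and the part of either list in the results was not tested. Leaving out the 35 control and 50 deleted cells positive for at least 2 markers of a non-CD4 cell type, a setting chosen after seeing the data, gave log2 ratios between the pools of 0.54 for Ly9, 0.70 for Cd84, 0.39 for Slamf1, 0.16 for Slamf6, -0.45 for Cd48 and -0.14 for Sh2d1a. These calls were on erythroid (20 and 27 cells), neutrophil (12 and 33), myeloid (8 and 10) and natural killer or innate lymphoid markers (1 and 3). The erythroid and neutrophil lists summed to only 12.2 and 13.8 CPM and 9.70 and 12.3 CPM in the pools. Whether these were cells of another type was not tested. The 2 CD8 T cell markers summed to 26.5 and 9.47 CPM. The plates are technical splits of a pool. With 1 pooled sample per group, no difference between the pools was tested, and effects of plate and of pool cannot be told apart, because each plate came from a single pool.

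In both pools the cells fell into a low band and a high band for each gene. Of the 736 cells, 424 (57.6%) were positive for Slamf6, 248 (33.7%) for Cd84, 248 (33.7%) for Sh2d1a, 234 (31.8%) for Cd48, 112 (15.2%) for Ly9 and 54 (7.34%) for Slamf1. Positive cells carried 99.3% or more of the reads of each gene in each pool, and their median level ran from 392 CPM for Sh2d1a to 1009 CPM for Slamf6. A cell below the limit may still have held transcripts that the method missed. Between 5 and 50 CPM, where the call is least certain, lay 9 cells for Slamf1, 13 for Sh2d1a, 14 for Ly9, 23 for Cd48, 43 for Cd84 and 66 for Slamf6. The 9 wells named noinput or dw, which held 6698 to 12348 reads in all, had at most 9 reads of Slamf6, 6 of Cd48, 4 of Ly9, 2 of Cd84, 2 of Sh2d1a and 0 of Slamf1.

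**Figure D1:**
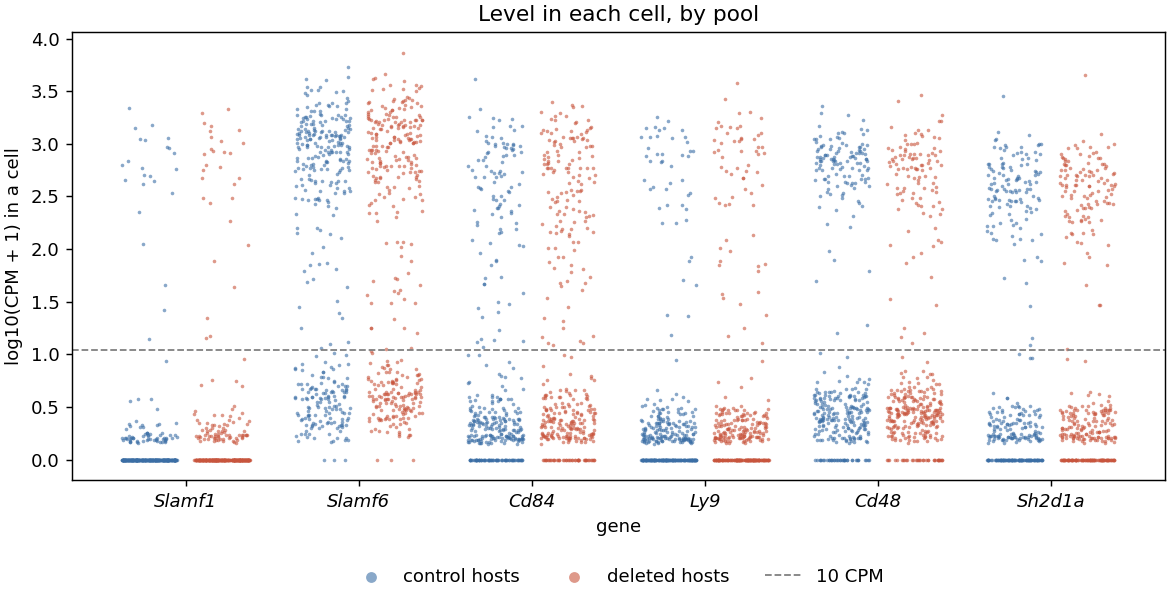
Level of each gene in every cell on a log10(CPM + 1) scale, one point per cell, control hosts in blue and deleted hosts in red, with the 10 CPM line dashed. Cells fell into a low band and a high band for each gene; the high band was fullest for Slamf6 (424 of 736 cells positive) and thinnest for Slamf1 (54 cells).

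Levels were also scaled per kilobase of merged exons (GENCODE vM21), which came to 1189 bases for Cd48 and 10832 for Slamf6. The length of the transcripts expressed was not measured, so the order of genes rests on that annotation. On this scale Cd48 stood highest, at 205 CPM per kb in the control pool (182 to 233 over plates) and 157 in the deleted pool (108 to 197). Slamf6 followed at 61.8 (50.1 to 69.7) and 64.4 (56.3 to 75.7). In the control pool Sh2d1a (28.9, plates 27.2 to 30.3), Cd84 (25.1, 21.8 to 31.2) and Ly9 (25.0, 20.9 to 34.2) overlapped on their plates and have no order. In the deleted pool Ly9 (41.6, 31.1 to 49.3) and Cd84 (39.6, 23.9 to 51.9) overlapped, and Sh2d1a (26.5, 22.4 to 29.9) overlapped with Cd84 but lay under every plate of Ly9. Slamf1 was lowest in both, at 6.48 (3.70 to 12.8) and 9.10 (8.20 to 10.04).

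Between the pools, Ly9 and Cd84 had the largest ratios of the 6 genes, both higher in deleted hosts, and Cd48 was the only receptor with a lower level there. No gene of the 6 was separated, meaning that all 4 plates of 1 pool lay above all 4 of the other, and none differed 2-fold. Over the 7207 genes tested, 4.68% were separated (1.82% higher and 2.86% lower in deleted hosts), 2.75% were at least 2-fold higher in deleted hosts and 3.16% at least 2-fold lower. The median log2 ratio of the 6 genes was 0.27, with 4 above and 2 below 0, and that of all genes tested was -0.04. With 1 plate left out, 3 plates against 4 separated 550 to 587 genes in place of 337, with the 20 CPM filter applied anew each time. The share of positive cells was higher in deleted hosts for 3 of the 6 genes, against 42.8% of all genes tested.

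Ly9, the receptor also named SLAMF3 or CD229, stood at 69.2, 77.0, 113 and 71.7 CPM on control plates 1 to 4 and at 163, 160.3, 128 and 103 CPM on deleted plates 1 to 4. Only deleted plate 4 lay under the highest control plate, plate 3. The pooled levels were 82.7 and 137 CPM, 1.65-fold higher in deleted hosts (log2 0.73, with an SD between plates of 0.32). Ly9-positive cells numbered 47 in the control pool (12.8%, exact 95% interval 9.54 to 16.6%) and 65 in the deleted pool (17.7%, 13.9 to 22.0%). Without control plate 3, or without deleted plate 4, the plates of the pools no longer overlapped for Ly9. That follows from the overlap just described and is no further result.

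Cd84, the receptor also named SLAMF5, which supports adhesion of T cells to B cells, stood at 140.4, 137, 195 and 156 CPM on the control plates and at 326, 150.2, 284 and 238 CPM on the deleted plates. Deleted plate 2 was the exception, lying among the control plates. That the pools did not overlap without it follows from this and is no further result. The pooled levels were 157 and 248 CPM (1.57-fold, log2 0.66, SD between plates 0.38), and 15.4% of all genes tested had a ratio at least that large in either direction. Cd84 had the widest gap in positive cells of the 6 genes, 105 cells (28.5%, 24.0 to 33.4%) against 143 (38.9%, 33.9 to 44.0%). By plate the numbers were 20, 24, 32 and 29 in the control pool and 39, 32, 35 and 37 in the deleted pool, so the pools met at 32 cells. Within positive cells the median level was 413 CPM in the control pool and 501 CPM in the deleted pool.

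Slamf1, the founding receptor of the family, also named CD150, stood at 78.8, 24.0, 22.8 and 33.3 CPM on the control plates and at 50.5, 61.8, 53.3 and 58.0 CPM on the deleted plates. Control plate 1 was higher than every deleted plate, and the other control plates were lower than every deleted plate. The pooled levels were 39.9 and 56.0 CPM (log2 0.48, SD between plates 0.58), and the log2 ratio was 1.04 without control plate 1. These levels rest on 24 positive cells (6.52%, 4.22 to 9.55%) and 30 positive cells (8.15%, 5.57 to 11.4%), and on control plate 3 a single cell held 52.1% of the Slamf1 reads.

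Slamf6, also named Ly108, was the most widely detected receptor and had nearly the same pooled level, 669 CPM in the control pool and 697 CPM in the deleted pool (log2 0.06, SD between plates 0.20). Its plates stood at 679.6, 542, 755 and 695 CPM against 609, 629, 715 and 820.2 CPM, and the ranges overlapped, with deleted plate 4 above every control plate and control plate 2 below every deleted plate. Positive cells numbered 220 (59.8%, 54.6 to 64.8%) and 204 (55.4%, 50.2 to 60.6%), so the share was lower and the level slightly higher in deleted hosts.

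Cd48, the ligand-type member, stood at 266, 277, 219 and 216 CPM on the control plates and at 187, 234, 198 and 129 CPM on the deleted plates. Only deleted plate 2 reached into the control range. The pooled levels were 244 and 186 CPM, 1.31-fold higher in control hosts (log2 -0.39, SD between plates 0.29), with 125 (33.97%, 29.1 to 39.1%) and 109 (29.6%, 25.0 to 34.6%) positive cells. Without deleted plate 2 the plates no longer overlapped, which follows from the overlap just described. They also no longer overlapped without the highest cell of each pool.

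Sh2d1a, the SAP gene, varied least between plates: 167, 158, 162 and 149.9 CPM in the control pool and 153, 142, 124 and 165 CPM in the deleted pool. The pools overlapped, with pooled levels of 159 and 146 CPM (log2 -0.13, SD between plates 0.13) and 127 (34.5%, 29.7 to 39.6%) and 121 (32.9%, 28.1 to 37.9%) positive cells. Exons of Sh2d1a overlap Tenm1 on the other strand, which was counted at only 0.79 and 2.61 CPM.

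**Figure D2:**
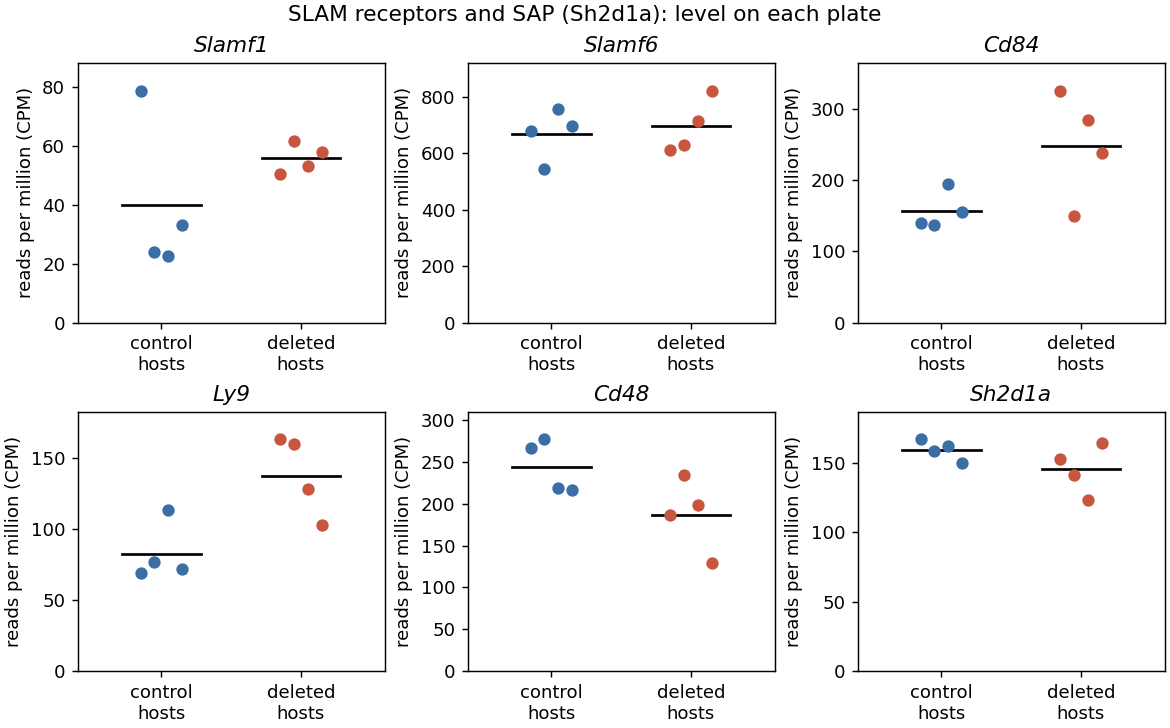
Level of each gene on each plate in CPM (vertical axes start at 0), with 4 control plates in blue, 4 deleted plates in red and the pooled level as a black line. Ly9 and Cd84 stood higher on 3 of the 4 deleted plates than on any control plate, 3 of 4 Cd48 plates of the deleted pool lay under the control plates, and the pools overlapped for Slamf6 and Sh2d1a.

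The 5 receptors summed to 1193 CPM in the control pool (1057 to 1305 over plates) and 1325 CPM in the deleted pool (1236 to 1379). Slamf6 made up 56.1% of these reads in the control pool and 52.6% in the deleted pool, Cd48 20.4% and 14.05%, Cd84 13.2% and 18.7%, Ly9 6.93% and 10.4%, and Slamf1 3.34% and 4.23%. The plates of the pools overlapped for each of these shares, which are of reads and not of molecules, since a longer transcript gives more reads.

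Counted per cell, most cells had few of the receptors. Cells were thinned to 500000 reads each for this and the following comparisons, which left out 2 control and 4 deleted cells that were too shallow. No receptor was detected in 65 of 366 control cells (17.8%) and 60 of 364 deleted cells (16.5%), and 1 receptor in 141 (38.5%) and 135 (37.1%). Cells with 3 receptors made up 10.9% of the control and 14.3% of the deleted pool, and the mean was 1.42 and 1.49 receptors per cell (1.42 and 1.497 without thinning). In cells with 0, 1, 2, 3 and 4 receptors, Sh2d1a was positive in 27.7%, 36.9%, 30.0%, 42.5% and 6 of 10 cells in the control pool. In the deleted pool the values were 23.3%, 26.7%, 35.8%, 26 of 52 cells and 2 of 7 cells. The share thus did not rise at each step in either pool, though in the deleted pool it fell only at 4 receptors, a class of 7 cells. Over both pools it was 25.6%, 31.9%, 32.9%, 46.7% and 8 of 17 cells. The 1 cell with 5 receptors, from the deleted pool, was positive. Whether the share rises with the number of receptors was not tested.

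**Figure D3:**
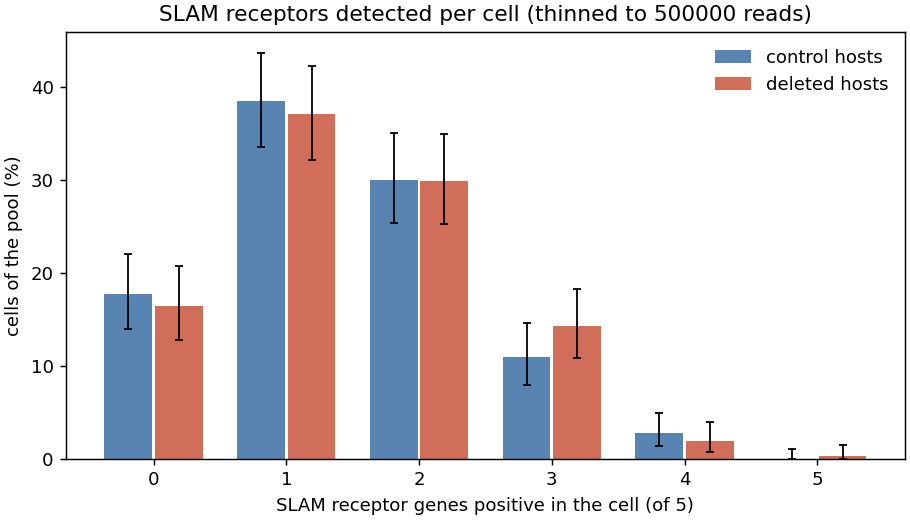
Share of cells (%) of each pool, thinned to 500000 reads, in which 0 to 5 of the receptor genes were positive; bars start at 0 and error bars are exact 95% binomial intervals, which cover counting error only. The intervals of the pools overlapped at every number, with 1 receptor the most frequent class (38.5% and 37.1%).

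Among pairs, Slamf6 and Sh2d1a were the most often found together, in 160 of 730 cells. Of the 15 pairs, 4 were higher on at least 7 of 8 plates, meaning that the second gene was more often positive in cells positive for the first: Slamf6 with Sh2d1a, Cd84 with Cd48, Ly9 with Cd48 and Ly9 with Sh2d1a. When each member was paired with each of the genes examined, 7.73% of the pairs met this rule, a comparison added after seeing the data in which the share of cells detecting each gene was not matched. Sh2d1a was positive in 38.1% of the Slamf6-positive and 27.1% of the Slamf6-negative cells, with a gap of 4.86 points in the control and 16.8 points in the deleted pool. Cd48 was positive in 37.8% of the Ly9-positive and 30.7% of the Ly9-negative cells, with gaps of 13.8 and 2.51 points. Of the receptor pairs next to each other on the chromosome, Ly9 and Cd48 were thus higher on 7 plates, Cd84 and Slamf6 on 5, Slamf1 and Cd84 on 4 and Cd48 and Slamf1 on 3. Over the 730 cells the highest rank correlation between 2 of the 6 genes was 0.10, for Slamf6 and Sh2d1a.

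Cells positive for Cxcr5, the receptor that leads T cells towards B cell follicles, were more often positive for Slamf6, Cd84 and Sh2d1a. These 3 of the 6 genes were more often positive in Cxcr5-positive than in Cxcr5-negative cells on at least 7 of 8 plates, and 14.8% of the 6323 genes examined met the same rule (15.8% without thinning, where Cd84 did not meet it). The share of cells detecting each gene was not matched in that comparison. A rarely detected gene can hardly meet the rule: no Cxcr5-positive cell of control plates 2 and 3 or deleted plate 1 was positive for Slamf1. Slamf6 was positive in 71.7% of 46 Cxcr5-positive and 58.4% of the 320 other control cells, and in 72.7% of 55 and 51.8% of the 309 other deleted cells, with control plate 2 the exception. Cd84 stood at 37.0% against 27.8% in the control pool and 52.7% against 35.9% in the deleted pool, with control plate 1 the exception, and no longer met the rule without the cells that carried markers of another cell type. Sh2d1a stood at 52.2% against 31.9% in the control pool but at 36.4% against 31.7% in the deleted pool, with deleted plate 2 the exception. Whether that gap differs between the pools was not tested, and without deleted plate 4 it was -0.052 points in the deleted pool.

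The remaining receptors did not meet the rule for Cxcr5. Ly9 was higher in Cxcr5-positive cells on 6 plates (17.4% against 12.5% in the control pool and 21.8% against 16.5% in the deleted pool). Cd48 stood at 37.0% against 33.4% in the control pool and at 27.3% against 30.1% in the deleted pool, a gap of -2.82 points that was 4.20 without deleted plate 3, and Slamf1 was higher on 3 plates. For comparison, over both pools Bcl6, the master regulator of follicular helper cells, was positive in 43.6% of the Cxcr5-positive and 23.4% of the other cells, and Pdcd1, which encodes PD-1, in 18.8% and 6.68%. Cd40lg, another helper gene examined, was positive in 25.7% and 20.3%. Its gap was -0.14 points in the control pool and 10.3 points in the deleted pool.

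With Icos, the rule was met by Sh2d1a and Cd84, 2 of the 6 genes, against 14.8% of all genes examined (16.8% without thinning), again not matched for detection. Sh2d1a was positive in 43.3% of 97 Icos-positive and 31.2% of 269 other control cells, and in 37.8% of 119 and 29.8% of 245 deleted cells, higher on all 8 plates. Cd84 stood at 35.1% against 26.8% and at 47.1% against 34.3%, higher on 7 plates and equal on control plate 2. The mean Cd84 level went the other way, at 164 CPM in Icos-positive and 168 CPM in other control cells. In the deleted pool it was 221 and 269 CPM. For Sh2d1a the mean level was higher in Icos-positive cells, at 188 against 150 CPM and 159 against 131 CPM. Slamf6, Cd48 and Ly9 were each positive more often in Icos-positive cells on 6 plates. Cd48 stood at 40.2% against 31.6% in the control pool and 38.7% against 25.3% in the deleted pool. Without the cells positive for Foxp3, only Cd84 met the rule for Icos, a setting chosen after seeing the data.

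Cells positive for either marker also showed more genes in general after thinning. The median number of genes with at least 5 reads was 1669.5 in Cxcr5-positive and 1372 in other control cells, and 1585 and 1308 in the deleted pool. For Icos it was 1534 and 1362 in the control pool and 1509 and 1281 in the deleted pool. Over all genes examined the median gap in positive cells was 2.73 and 3.71 points for Cxcr5 and 1.84 and 2.76 points for Icos, in the control and deleted pools. The part of this general gap in the values of the 6 genes was not tested.

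Over both pools, the 41 cells positive for both Cxcr5 and Icos had the highest shares of every member except Ly9. Cd84 was positive in 29.5% of 454 cells with neither marker, 36.7% of 60 with Cxcr5 only, 37.7% of 175 with Icos only and 58.5% (42.1 to 73.7%) of the double-positive cells. For Sh2d1a the shares were 30.2%, 33.3%, 36% and 58.5%. The pools differed for cells with Cxcr5 only, where Sh2d1a was positive in 12 of 28 control cells (42.9%) and 8 of 32 deleted cells (25%). With neither marker the Sh2d1a shares were 29.9% and 30.5%. In the double-positive cells of the control pool 8 of 18 were positive for Cd84 and 12 for Sh2d1a, and in those of the deleted pool 16 of 23 and 12. Over both pools the shares of Slamf6 were 52.2%, 71.7%, 62.9% and 73.2%, and those of Cd48 29.5%, 21.7%, 37.7% and 46.3%. With Cxcr5 only, Cd48 stood at 32.1% in the control and 12.5% in the deleted pool, against 31.5% and 27.2% with neither marker. Slamf1 was positive in 6 of the 41 double-positive cells (14.6%) and in 6.61% of cells with neither marker, 6.67% with Cxcr5 only and 14 of 175 with Icos only, while Ly9 was highest in cells with Cxcr5 only (21.7%, against 17.1% with both). By pool, Slamf1 was positive in 1 of 18 double-positive control cells (5.56%), the lowest share of the control classes. In the deleted pool it was positive in 5 of 23. Slamf6 in control cells stood at 72.22% with both markers and 72.15% with Icos only.

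The number of receptors per cell, a sum over the same 5 receptor genes, had a mean of 1.31 in cells with neither marker, 1.58 with Cxcr5 only, 1.65 with Icos only and 2.10 with both. In the control pool the median was 1.5 with both and 2 with either marker alone. In the deleted pool it was 2 with both, 2 with Cxcr5 only and 1 with Icos only. At least 3 receptors were detected in 10.4% of cells with neither marker, 18.3% with Cxcr5 only, 35 of 175 cells with Icos only and 41.5% (17 of 41 cells) with both. The classes had median depths of 1502940.5, 1686227.5, 1514276 and 1770500 reads before thinning.

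**Figure D4:**
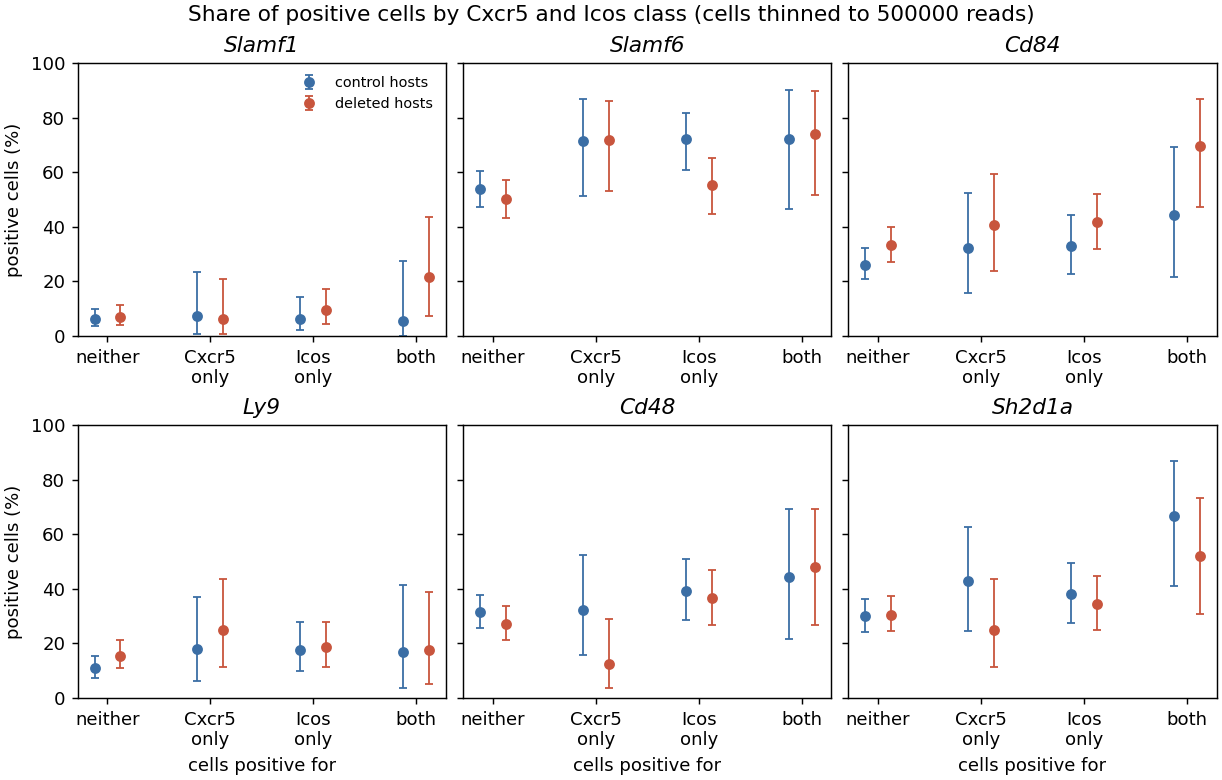
Share of cells positive (%) for each gene by Cxcr5 and Icos class, control hosts in blue and deleted hosts in red, in cells thinned to 500000 reads; bars are exact 95% binomial intervals. For Cd84 and Sh2d1a the point for cells with both markers was the highest in each pool (Cd84 8 of 18 and 16 of 23 cells, Sh2d1a 12 of 18 and 12 of 23), with wide intervals.

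Of 21 further pathway genes with a row, 14 passed the filter. None of the 14 was separated and 1, Ptpn11, was 2-fold higher in deleted hosts (2.75% of all genes tested), with a median log2 ratio of 0.16 for the 14, of which 8 lay above and 6 below 0. Ptpn11, which encodes the phosphatase SHP-2, stood at 22.2 CPM (8.21 to 42.1 over plates) and 47.7 CPM (35.4 to 74.9), a log2 ratio of 1.07 that fell to 0.81 without control plate 3, 0.99 without control plate 4 and 0.77 without deleted plate 3. Ptpn6, which encodes SHP-1, stood at 849 and 690.3 CPM (log2 -0.30), and Inpp5d, which encodes the lipid phosphatase SHIP-1, at 158 and 94.8 CPM (log2 -0.73), both with overlapping plates. Fyn, the kinase that SAP recruits, stood at 547 CPM (507 to 624) and 652 CPM (614 to 690), and Lck at 2848 and 3110 CPM. Cd2, a partner of Cd48 on T cells, stood at 879 and 1023 CPM.

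The other receptors and adaptors of the family were low. Slamf7, which lies between Ly9 and Cd48 on the chromosome, stood at 13.1 and 11.8 CPM with 6 and 7 positive cells. Slamf8, Slamf9, Cd244, which is the main receptor for Cd48, and Sh2d1b1, a second SAP-type adaptor, each stood under 1 CPM in both pools. Zbtb16, the factor of innate-like T cells whose development needs SAP, stood at 0.01 and 0.02 CPM.

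Among the 6323 genes, the pattern most like that of a member over 730 cells reached a rank correlation of 0.3 only for Slamf1, with Fastkd3 (0.51), Zfp1 (0.50) and Chm (0.49) on values centred per plate. These correlations were not present within plates, where their means were 0.06, -0.01 and 0.06, and Slamf1 shared 3 of the 19 positive cells of Fastkd3, 2 of the 35 of Zfp1 and 6 of the 46 of Chm. For the other 5 genes the highest correlation was 0.27.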

How the data were processed

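Full-length single-cell RNA-seq (SmartSeq2) was deposited for 2 pooled samples on 8 plates of 96 wells. The values deposited by the authors are raw read counts for each gene in each well. The labels' protocols describe oligo(dT) priming, 25 cycles of PCR and Tn5 tagmentation. Counting with featureCounts 2.0.1 and the build mm10 are named in the submitters' processing notes. The sources used here name no aligner, annotation or strand setting, so reads of overlapping genes on opposite strands cannot be told apart. No molecular identifiers are named, so PCR copies count as reads and every interval covers counting error only.

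Wells named only by plate and well were cells, and the 32 other wells entered no comparison. Samples were grouped by strain, and plates are numbered by their labels. Counts were summed per plate and pool and scaled to CPM. Log2 ratios are log2 of (deleted + 1) over (control + 1) CPM, for genes at 20 CPM or above in at least 1 pool. No cell was removed, no doublet caller was run on the singly sorted cells, and no test or p-value was possible with 1 pool per group. The cell wells kept include 2 of the deleted pool and 0 of the control pool with under 100000 reads. The shallowest held 9905 reads, within the range of the wells named noinput or dw (6698 to 12348). In a well that shallow, 1 read of a gene passes 10 CPM. The SD between plates is that of log2(CPM + 1) within pools. Intervals for shares are Clopper-Pearson. Cells were thinned to 500000 reads for co-expression, over genes with 20 CPM or more in both pools. The members and the pathway and marker lists were chosen with earlier results of these data known. Named genes were the members, list genes and, for each member, the 3 genes of highest rank correlation where it was 0.3 or more. Genes overlapping a member were named after their values were seen. Alternatives changed the size factors, pseudocount, filter, definition of a positive cell, thinning and plate rule, and left out plates or cells. Python 3.11.15, pandas 2.3.3, numpy 2.4.6 and scipy 1.17.1 were used, and the scripts were tested on simulated data.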

Additional observations from a re-analysis of the deposited data

Results flagged for a closer look

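Reads of the receptors were found in control wells that entered no comparison, with medians above the highest noinput or dw well in at least 1 kind of well for Slamf6, Cd84 and Cd48. Ly9 had a read in 9 of the 10 wells named mBM100 (at most 59) and in 7 of the 13 named mBM10 (at most 158), and Slamf1 in 5 and 3 (at most 17 and 2). The labels do not explain the names mBM10 and mBM100. The median in the 10 wells named mBM100 was 27 reads for Slamf6, 43.5 for Cd84 and 39.5 for Cd48, and in the 13 wells named mBM10 it was 85 for Cd84 and 30 for Cd48. The 9 wells named noinput or dw had medians of 5 reads for Slamf6, 1 for Cd84 and 2 for Cd48. These wells differed in depth, from 11622 to 1872166 reads for mBM100 and from 680127 to 2740373 for mBM10, against 6698 to 12348 for noinput and dw. Sh2d1a reached 10 CPM in 0 of the 23 wells named mBM10 or mBM100. The level and the share of positive cells of each gene on the 4 plates of each pool gave 24 groups that were checked for a plate far from the others, and 0 passed Dixon's 95% critical value.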

How the results depend on the processing

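Of 686 values under alternatives, 656 were labelled the same, 23 moved and 7 reversed. Ratios, shares and gaps were labelled the same within their spread between plates, and counts within a fixed fold limit. The 656 include 174 that equalled the reported value, many of which the setting could not change. For example, a gap in the deleted pool cannot change without a control plate, and no gap depends on the plate rule. These totals are therefore no measure of robustness. Of the 656, 8 changed sign: the Cd48 gap with Cxcr5 in the deleted pool and the Slamf1 gaps with Cxcr5 and Icos in the control pool, none of which met the rule. The causes were not tested. The number of separated members, 0, became 1 (Cd48) when each pool lost its highest cell and ranged from 0 to 2 when 1 plate was left out, while all genes separated went from 337 to between 550 and 587, with 3 plates against 4. The log2 ratio of Slamf6 ranged from -0.036 (without deleted plate 4) to 0.12 and was -0.025 without control plate 2. Counting cells with 1 read or more as positive, the share in deleted minus control hosts was 1.09 points for Cd48 and 2.72 for Sh2d1a, and 5 members had a higher share in deleted hosts in place of 3 (42.8% of all genes at the reported rule), or 3 to 4 with 1 plate left out. Of the 9 wells named noinput or dw, 9 had a read of Cd48, 8 of Slamf6, 6 of Ly9, 5 of Cd84, 4 of Sh2d1a and 0 of Slamf1. For the genes other than Slamf1, a cut of 1 read may therefore count stray reads. At the reported rule the share difference of Sh2d1a ranged from -2.99 to 0.63 points with 1 plate left out, above 0 without control plate 4 (0.27) or deleted plate 3 (0.63). The members meeting the Cxcr5 rule were 3, but 0 when all 8 plates had to be higher, 4 at 6 plates, 2 (without Cd84) with all reads, and 2 (without Cd84) without cells positive for at least 2 markers of another cell type, a setting chosen after seeing the data. The gap of Sh2d1a in Cxcr5-positive cells of the deleted pool ranged from -0.052 to 9.99 points with 1 plate left out. The members meeting the Icos rule were 2, but 1 (Sh2d1a) at 8 plates, 5 at 6 plates, 4 without the cells with other markers and 1 (Cd84) without Foxp3-positive cells, both also chosen then. No paired analysis was possible because each group is 1 pooled sample and the groups share fewer than 2 replicate numbers. Few cells stand behind Slamf1 (24 and 30 positive) and the double-positive classes (18 and 23). Thinned to 500000 reads, Slamf1 had 23 and 31 positive cells.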
